A study of Rattus norvegicus with 10 samples.

Results

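The transcripts described here are 10 genes that mark T cells and cytotoxic lymphocytes: Cd3d, Cd3e, Cd3g, Cd2, Cd8a, Cd8b, Gzma, Gzmb, Prf1 and Nkg7. They were chosen by name, with earlier results of these data known. All 10 had a row of their own among the 32623 rat genes of the deposited table. Reads were found for 9 of them, and 8 had the mean of at least 10 normalized counts that the test across genes required. A normalized count is the number of reads of a gene divided by the size factor of its sample, and since size factors lay between 0.942 and 1.07 it was close to a read.

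RNA was sequenced from the supraoptic nucleus, a small hypothalamic nucleus of neurons that release vasopressin and oxytocin, in male Sprague Dawley rats of 250 to 300 g whose age the labels do not give. In each rat the nucleus of one side had been given an adeno-associated virus carrying a short hairpin RNA against Opn3 (shOpn3, 5 samples, hence 5 rats), and the opposite nucleus one carrying a non-targeting hairpin (shControl, 5 samples). That samples with equal numbers come from the same rat is not stated. Both groups had thus received an injection and a virus, and no sample of an uninjected nucleus is analysed here, so the shControl values are not those of untouched tissue. Each nucleus was taken 2 weeks later with a 1 mm punch from 100 μm sections and extracted on its own, and neither the promoter of the hairpins, the injected side nor any flushing of blood before collection is stated.

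T cells recognise peptides through a receptor that signals inside the cell by the CD3 chains, which the genes Cd3d, Cd3e and Cd3g encode. CD8, a pair of chains from Cd8a and Cd8b, holds the receptor of cytotoxic T cells to MHC class I molecules on a target cell. A cytotoxic cell then empties granules in which perforin (Prf1) opens the way for granzymes, and natural killer (NK) cells use the same granules without a T cell receptor. The healthy brain holds few lymphocytes, and they reach the tissue from blood, the meninges and the perivascular spaces. In rats Cd8a is also carried by NK cells, Cd2 by NK cells, and Cd4 by macrophages and microglia, so no single transcript names one cell type.

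Libraries held between 33158341 and 39958578 reads. The target transcript Opn3 ranged from 261 to 1007 normalized counts in shControl and from 145 to 290 in shOpn3 and was lower in 5 of 5 same-numbered pairs, with a limma log2 fold change of -1.82 and an adjusted p of 0.00226. Avp, which marks the neurons of this nucleus, was found in all 10 samples, at 4619 normalized counts or more. Same-numbered samples deviated together from their group means, so a second test took the replicate number as a block. The 9 lymphocyte genes with reads together had between 76 and 202 reads per library in shControl and between 168 and 519 in shOpn3, and a single one between 28 and 286 reads over a group of 5 libraries.

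Several T cell transcripts were more abundant in the nuclei with the Opn3 hairpin, while those of perforin and granzyme A were not shown to differ. Cd3e, Cd3g, Cd2, Cd8a and Nkg7 rose in shOpn3, by 1.04 to 1.45 on the log2 scale, and 0 members fell with limma, edgeR or DESeq2. Cd3d, Cd8b and Prf1 did not pass the test, Gzma had too few reads for it, and Gzmb had 0 reads in every sample. The count of 5 rises among 8 members tested stood beside 10.4% of all 15597 genes tested that rose (18.8% were called in either direction), and beside 11.3% of the 2079 genes with a mean between 10 and 50, the range in which all 8 lay. Cd8b and Nkg7 reached the required mean of 10 through shOpn3, since their shControl means were below it. The median log2 fold change was 1.09 over the 8 members, -0.02 over all genes tested and 0.14 over those with a mean between 10 and 50. Fewer cells of a type and less RNA per cell cannot be told apart in RNA of whole punches, and the same holds for more.

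**Figure D1:**
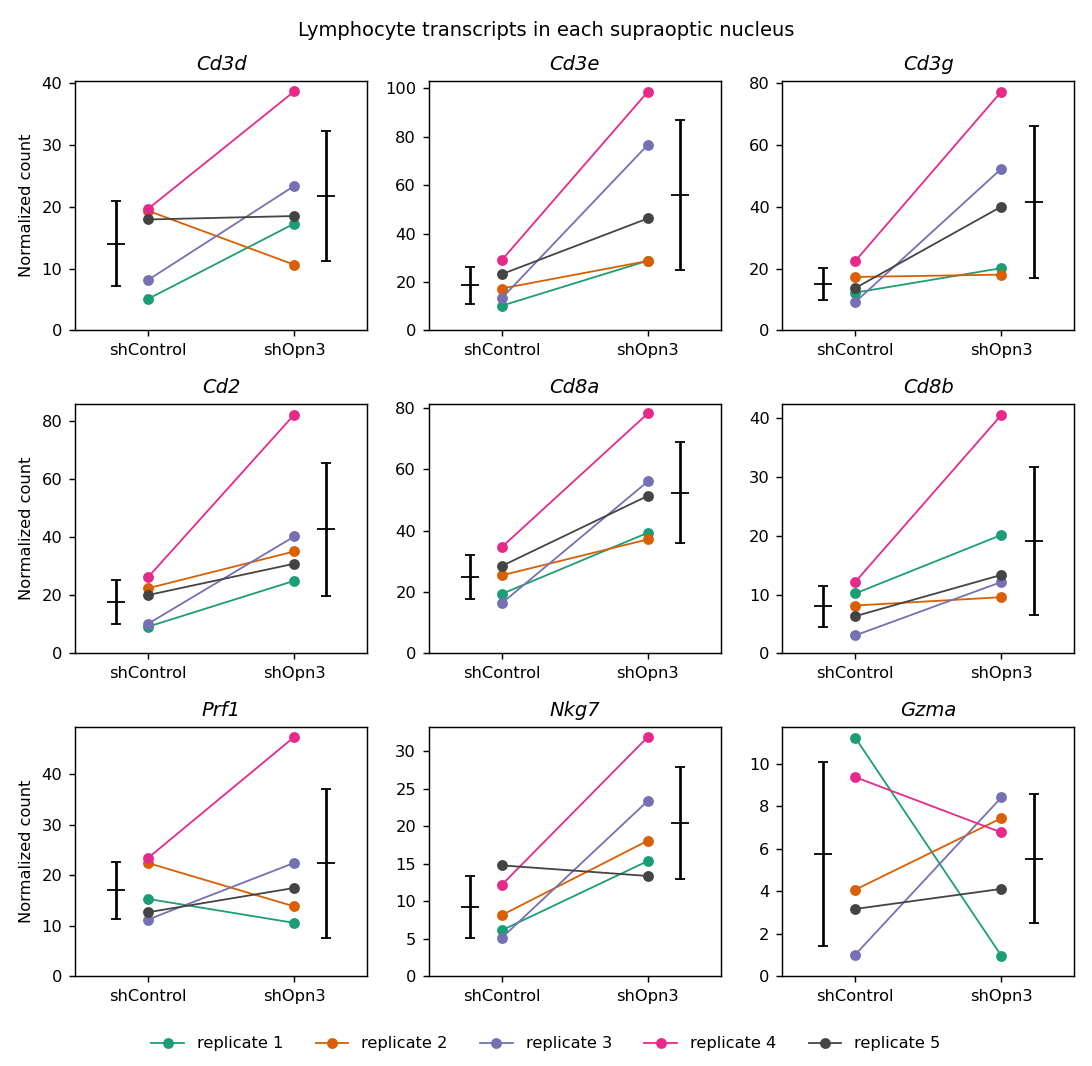
Normalized counts (linear axes from 0) of the 9 lymphocyte genes with reads in each nucleus. Points are samples, lines join samples with the same replicate number, and bars are mean ± SD (n = 5). The shOpn3 sample of replicate 4 was the highest of its group for 8 of the 9 genes, and only for Cd8a did the groups not overlap.

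The genes of the 3 CD3 chains lie side by side in the rat genome, in the order Cd3g, Cd3d, Cd3e. Their promoter windows, from 250 bases before to 50 after the start of each gene, are printed because these neighbours encode chains of 1 receptor complex. The sequences are from RefSeq (GRCr8), written 5′ to 3′ on the strand of the gene, Cd3d at chr8:54185269-54185568 (plus strand), Cd3e at chr8:54211721-54212020 (minus strand) and Cd3g at chr8:54183869-54184168 (minus strand). Capitals mark matches on either strand to an ETS-type motif, GGAAGT, or to the E-protein motif CAGCTG.
Cd3d: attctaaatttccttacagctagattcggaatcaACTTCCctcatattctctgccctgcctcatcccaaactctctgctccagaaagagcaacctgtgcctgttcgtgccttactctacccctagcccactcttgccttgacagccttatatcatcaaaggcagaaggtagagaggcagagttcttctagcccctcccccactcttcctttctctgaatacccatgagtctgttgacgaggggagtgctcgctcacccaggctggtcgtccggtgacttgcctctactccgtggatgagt
Cd3e: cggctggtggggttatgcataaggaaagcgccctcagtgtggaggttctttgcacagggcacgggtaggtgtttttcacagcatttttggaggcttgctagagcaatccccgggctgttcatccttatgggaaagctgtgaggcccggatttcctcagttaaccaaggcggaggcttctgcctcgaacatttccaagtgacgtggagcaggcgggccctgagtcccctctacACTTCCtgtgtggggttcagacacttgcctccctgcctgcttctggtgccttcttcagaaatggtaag
Cd3g: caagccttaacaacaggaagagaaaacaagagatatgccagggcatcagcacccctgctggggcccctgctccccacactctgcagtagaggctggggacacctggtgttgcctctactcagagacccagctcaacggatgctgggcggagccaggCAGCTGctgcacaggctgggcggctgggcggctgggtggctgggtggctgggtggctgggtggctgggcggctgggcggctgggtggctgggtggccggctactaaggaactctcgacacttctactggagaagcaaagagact

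The ETS-type letters stood in the windows of Cd3d and Cd3e and the E-protein letters in that of Cd3g. Windows were found for 9 members (all but Cd8b), and 4 of them held GGAAGT, against 22.6% of 33469 rat promoter windows, while 3 held CAGCTG, against 15.1%. A RUNX motif, TGTGGT, stood in 5 of the 9 windows (Cd2, Gzma, Gzmb, Nkg7 and Prf1), against 17.3% of all windows, and in none of the 3 CD3 windows. The TATA box letters TATAAA stood in that of Gzmb alone among the 9, against 14.2% of all windows. No match shared letters with another, and in Prf1 an ETS-type match followed directly on an E-protein match. These are matches of letters, and no binding was measured.

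Cd3e (ENSRNOG00000016069), the chain that pairs with each of the others, had 10.2, 17.3, 13.3, 29.0 and 23.2 normalized counts in shControl replicates 1 to 5. In shOpn3 replicates 1 to 5 it had 28.8, 28.7, 76.6, 98.5 and 46.2. The shOpn3 samples of replicates 3 and 4 stood highest, and the groups overlapped narrowly, since shControl replicate 4 lay just above shOpn3 replicates 1 and 2. The means were 18.6 ± 7.59 and 55.8 ± 30.9 (SD, n = 5 each), and every pair was higher in shOpn3. Its rise of 1.45 ± 0.38 (log2 fold change ± SE) passed at a limma adjusted p of 0.0200. The exact permutation test, two-sided and without the pairing here and below, gave p = 0.0238. An exact sign-flip test over the 5 pairs gave p = 0.0625, the smallest it allows. Without shOpn3 replicate 3 the log2 fold change was 1.29 and the limma adjusted p 0.0595.

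Cd3g (ENSRNOG00000015945), the gamma chain, had 12.2, 17.3, 9.18, 22.5 and 13.7 normalized counts in shControl and 20.1, 18.1, 52.3, 77.3 and 40.1 in shOpn3. Its increase was uneven, near 0 in pair 2 (log2 difference 0.06) and 2.39 in pair 3, and the lowest shOpn3 samples lay within the shControl range. In limma it rose by 1.27 ± 0.39 (log2 ± SE) at an adjusted p of 0.0400, in 5 of 5 pairs (exact permutation p = 0.0317). That call was lost when any of 7 single libraries was left out, namely shControl replicates 1, 2, 3 or 5 or shOpn3 replicates 3, 4 or 5 (limma adjusted p from 0.0607 to 0.106).

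Cd3d (ENSRNOG00000015994), the delta chain, had 5.10, 19.3, 8.16, 19.7 and 17.9 normalized counts in shControl and 17.3, 10.6, 23.4, 38.6 and 18.5 in shOpn3. The groups overlapped over most of their range, with replicate 2 lower in shOpn3 and replicate 5 nearly equal. The log2 fold change of 0.63 (SE 0.41) did not pass (limma adjusted p = 0.323), nor with the block (0.230). Cd3d and Cd3e lie on opposite strands and point toward each other, and whether reads were counted by strand is not stated. Where these genes end was not examined, and whether any read of one was counted to the other was not tested.

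Cd2 (ENSRNOG00000015821), an adhesion receptor of T and NK cells, had 9.18, 22.4, 10.2, 26.2 and 20.0 normalized counts in shControl and 24.9, 35.05, 40.2, 82.1 and 30.8 in shOpn3. The shOpn3 sample of replicate 4 stood far above the rest, and 4 of the 5 shOpn3 samples lay above every shControl sample. With limma Cd2 rose by 1.21 ± 0.36 (log2 ± SE; adjusted p = 0.0360), and the exact permutation test gave p = 0.0159, with 5 of 5 pairs higher. Without shOpn3 replicate 4 the log2 fold change was 0.95 and the limma adjusted p 0.0754. The call was also lost without shControl replicates 1 or 3 or shOpn3 replicates 2, 3 or 5, the adjusted p over all 6 libraries lying between 0.0509 and 0.0782.

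Cd8a (ENSRNOG00000007178), the chain found in every form of CD8, was the one member whose groups did not overlap. It had 19.4, 25.4, 16.3, 34.6 and 28.5 normalized counts in shControl and 39.3, 37.2, 56.1, 78.2 and 51.4 in shOpn3, so that the lowest shOpn3 sample stood above the highest shControl sample. Of all genes tested 8.03%, and of those with a mean between 10 and 50 7.79%, had shOpn3 samples all above the shControl samples. The means were 24.9 ± 7.28 and 52.4 ± 16.5 (SD, n = 5 each), a ratio of 2.11. The rise of Cd8a, 1.04 ± 0.26 (log2 ± SE), had a limma adjusted p of 0.0144, and its exact permutation p of 0.00794 is the smallest that 5 against 5 samples allow. The limma call held when any single library was left out, and was lost without both samples of replicate 3 (0.87, adjusted p = 0.0824).

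Cd8b (ENSRNOG00000007129), the partner chain that is typical of cytotoxic T cells, had 10.2, 8.14, 3.06, 12.2 and 6.33 normalized counts in shControl and 20.1, 9.56, 12.1, 40.6 and 13.4 in shOpn3. All 5 pairs were higher in shOpn3, but shOpn3 replicates 2 and 3 lay at or under the highest shControl sample. The log2 fold change was 1.09 (SE 0.42), close to that of Cd8a, and did not pass without the block (limma adjusted p = 0.0929). With the replicate number as a block it passed (SE 0.29, limma adjusted p = 0.0248), which brought the members that rose to 6 of 8, beside 15.1% of all genes tested.

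**Figure D2:**
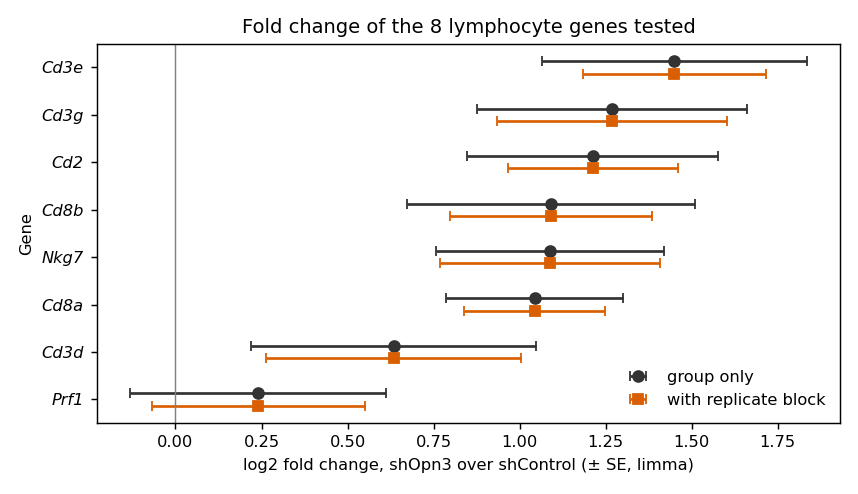
Log2 fold change (shOpn3 over shControl, on the log2(normalized count + 1) scale) of the 8 genes tested, with bars of 1 SE, from limma with the group alone (circles) and with the replicate block (squares). Cd3e had the highest value, 1.45, and Prf1 the lowest, 0.24, with bars that cross 0.

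Nkg7 (ENSRNOG00000017749), a granule protein of NK and cytotoxic T cells, had 6.12, 8.14, 5.10, 12.2 and 14.8 normalized counts in shControl and 15.4, 18.1, 23.4, 31.9 and 13.4 in shOpn3. It was higher in shOpn3 in 4 of 5 pairs, the exception being replicate 5, whose shControl sample was the highest of its group and whose shOpn3 sample was the lowest. The limma rise was 1.09 ± 0.33 (log2 ± SE) with an adjusted p of 0.0374, and the exact permutation p was 0.0159. The call was lost without shControl replicates 1, 2 or 3 or shOpn3 replicates 2, 3 or 4 (limma adjusted p from 0.0600 to 0.0946).

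Prf1 (ENSRNOG00000000562), which encodes the pore former perforin, had 15.3, 22.4, 11.2, 23.4 and 12.7 normalized counts in shControl and 10.6, 13.8, 22.4, 47.3 and 17.5 in shOpn3. It was lower in shOpn3 in pairs 1 and 2 and higher in the other pairs, and a single shOpn3 sample, replicate 4, stood above the shControl range. The log2 fold change of 0.24 (SE 0.37) did not pass (limma adjusted p = 0.702, exact permutation p = 0.611). Without shOpn3 replicate 4 it was -0.07, so its sign rested on that library.

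Gzma (ENSRNOG00000010603), a granzyme with trypsin-like cleavage, had 11, 4, 1, 10 and 3 reads in shControl and 1, 7, 9, 7 and 4 in shOpn3, or 29 and 28 reads in all. The groups covered the same range, with the shControl sample of replicate 1 the highest and 1 read each in shControl replicate 3 and shOpn3 replicate 1. The difference of the log2 means was 0.04 (exact permutation p = 0.976), and no difference was detectable at this depth.

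Gzmb (ENSRNOG00000045973), the granzyme that cleaves caspases, had 0 of 355386366 reads over the 10 libraries, and a count of 0 allows for up to 3 reads of that total by counting error alone. It belongs to a rat family of near copies that lie together, and how reads that fit several copies were counted is not stated. Of all 11 granzyme rows, 7 had 0 reads, those of Gzmb, Gzmbl1, Gzmbl3, Gzmc and Gzmf and both rows of Gzmn. Gzmbl2, singled out after its values were seen, had 4 reads in shControl and 13 in shOpn3, of which 5 each were in replicates 3 and 4. The 0 reads of Gzmb are therefore a statement on this annotated copy.

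The fold changes of the members were also set beside that of Cd3e, chosen as the reference after its values were seen. Cd3e had the largest limma rise of the members, so its excess over the others is positive by that choice, and the differences are given as a description with no test. On the log2 scale the change of Cd3e exceeded that of Gzma by 1.41, of Prf1 by 1.21 and of Cd3d by 0.82, in 4, 5 and 4 of 5 pairs. For Cd3g, Cd2, Cd8a, Cd8b and Nkg7 the excess lay between 0.18 and 0.41.

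Replicate 4 was the highest shControl sample for 7 of the 9 genes with reads and the highest shOpn3 sample for 8 of them, the exception in shOpn3 being Gzma. In shControl, replicate 3 was the lowest for 6 genes. The summed normalized counts of the 9 genes were 98.9, 144, 77.6, 189 and 140 in shControl replicates 1 to 5 and 177, 178, 315, 501 and 235 in shOpn3. Every pair was higher in shOpn3, at 1.79, 1.23, 4.06, 2.65 and 1.68 times its shControl sample. The groups still overlapped, since shControl replicate 4 lay above shOpn3 replicates 1 and 2.

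**Figure D3:**
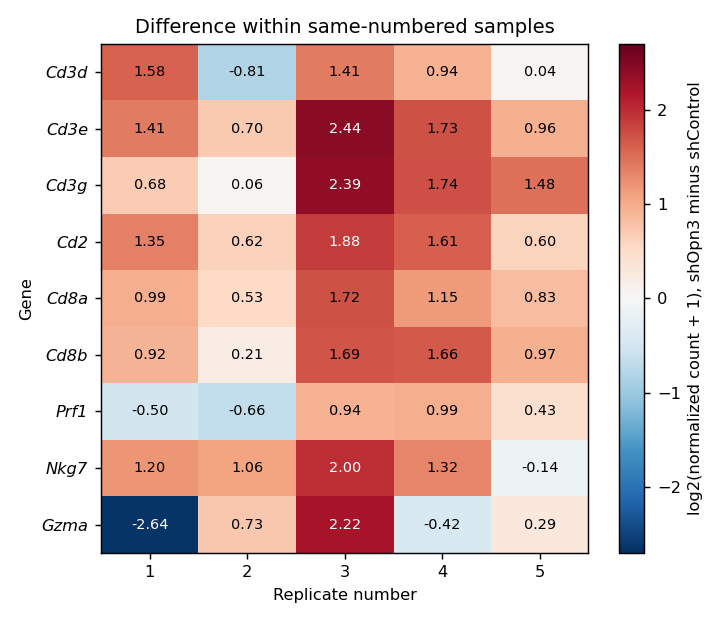
Difference in log2(normalized count + 1), shOpn3 minus shControl, for each gene (rows) in each same-numbered pair (columns), printed in each cell. All 9 genes were higher in shOpn3 in pair 3, and 7 of 9 in pairs 1 and 2.

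Pair 3 gave the largest median difference, 1.88 on the log2 scale, with all 9 genes higher in shOpn3, and its shControl sample was at the same time the lowest of its group. The medians of pairs 1, 2, 4 and 5 were 0.99, 0.53, 1.32 and 0.60, with 7, 7, 8 and 8 of 9 genes higher. The share of all genes that were higher in each single pair was not computed. A total of 5 members (Cd3e, Cd3g, Cd2, Cd8a and Cd8b) were higher in all 5 pairs, which held for 18.7% of all genes tested. Both samples of replicate 3 were also left out, a choice made after the data were seen. That left 0 of 8 members past the threshold with limma and 0 with edgeR. Over the whole table limma still called 1603 genes without replicate 3, and edgeR 1685. Of the members, 5 with limma and 6 with edgeR had an unadjusted p under 0.05, and all 8 log2 fold changes remained above 0. The shares of all genes that met these conditions are not given, so the member counts have no background here. With the block and without replicate 3, 3 members (Cd3e, Cd2 and Cd8a) passed, beside 2930 genes over the whole table. Without both samples of replicate 4, limma called 2 members (Cd3e and Cd8a).

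Other genes of T cell receptor signalling gave a divided picture. Of 18 found, 12 were tested, 4 rose and 0 fell with limma, edgeR or DESeq2, with a median limma log2 fold change of 0.37. The rises were those of Cd4, which rat macrophages also carry, from 649 ± 59.2 normalized counts to 2712 ± 1165 (SD over 5 samples, log2 fold change 1.95), the adaptors Fyb1 (1.77) and Lcp2 (1.05), which myeloid cells share, and Cd6 (0.76), a surface receptor of T cells. The limma adjusted p of these 4 lay between 0.000306 and 0.0217. The call of Cd6 was lost without shControl replicate 2 or shOpn3 replicates 3 or 5 (limma adjusted p from 0.0547 to 0.0620). The receptor kinases Lck and Zap70, the adaptor Lat and the zeta chain Cd247, singled out after their values were seen, did not pass, with log2 fold changes of 0.18, 0.20, 0.23 and 0.25 (limma adjusted p from 0.463 to 0.659). Their shControl means were 122, 42.4, 28.1 and 24.4 normalized counts, against 18.6 for Cd3e. Cd28, likewise singled out, was higher in 5 of 5 pairs (log2 fold change 0.77) and did not pass (limma adjusted p = 0.150). With the replicate block Cd28 passed (limma adjusted p = 0.0388), which made 5 rises in this list. The constant regions of the T cell receptor, Trac, Trbc1 and Trbc2, are not analysed here.

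Among 14 further granule and effector genes found, 10 were tested, with 3 higher and 1 lower. Ctsw, a protease of NK and cytotoxic T cells, went from 17.6 ± 7.30 normalized counts up to 56.3 ± 21.9 (SD over 5 samples), a log2 fold change of 1.63 ± 0.31 (SE) at a limma adjusted p of 0.00371. Its samples did not overlap, at 10.2 to 28.5 in shControl and 38.2 to 90.8 in shOpn3. Ctsc, the enzyme that activates granzymes and is also made by microglia, rose by 0.95, and Serpinb9, an inhibitor of granzyme B, by 0.57 (limma adjusted p = 0.000613 and 0.00650). Gzmm, another granzyme, went the opposite way, from 226 ± 66.3 down to 112 ± 40.2 (SD over 5 samples), with a log2 fold change of -1.04 at a limma adjusted p of 0.0158, and was lower in 5 of 5 pairs. Gzmm had 1117 reads in shControl, against 93 for Cd3e and 29 for Gzma, and which cells carried it was not tested. Ifng, the T and NK cell interferon and likewise singled out, had 0 reads in shControl and 5 in shOpn3, too few to compare.

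NK cell receptors, of which 6 of 12 found had enough counts, gave 3 rises and 0 falls, and 5 rises with the block. Klrd1 (CD94) had between 9.16 and 13.3 normalized counts in shControl and between 15.4 and 77.6 in shOpn3, highest in replicate 3 (log2 fold change 1.38 ± 0.40, limma adjusted p = 0.0297). Klrc2, which pairs with it, and Cd244, a receptor that macrophages also carry, rose by 1.73 and 1.504 (limma adjusted p = 0.0337 and 0.000306). Klrc2 reached the required mean of 10 through shOpn3, since its shControl mean was 8.04. The call of Klrd1 was lost without shControl replicates 2, 3 or 4 or shOpn3 replicates 3 or 4 (limma adjusted p from 0.0579 to 0.0708). That of Klrc2 was lost without shControl replicates 1, 2, 3 or 5 or shOpn3 replicates 1, 2, 3 or 4 (from 0.0547 to 0.0830). Ncr1, the receptor most typical of NK cells and singled out for that, had a mean of 5.23 ± 1.87 normalized counts without and 13.6 ± 9.05 with the Opn3 hairpin (SD over 5 samples) and was too rare for the test.

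Lymphocyte transcription factors and cytokine receptors rose in 5 of 8 tested genes. Il2rb, the interleukin 2 and 15 receptor chain of T and NK cells, rose by 1.52, Prdm1, a factor of effector lymphocytes, by 1.56, and the shared chain Il2rg and Il18r1 by 1.29 and 0.98 (limma adjusted p from 0.00342 to 0.0100). Foxp3, Tbx21 and Gata3, which mark T cell lineages and were singled out for that, had too few counts for the test. Their mean normalized counts were 5.93, 6.28 and 6.07 in shControl and 13.5, 10.9 and 7.89 in shOpn3.

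Costimulation and checkpoint genes rose in 6 of 8 tested. Ctla4, a brake on activated T cells, had between 5.27 and 13.3 normalized counts in shControl and between 18.1 and 42.1 in shOpn3, with no overlap (log2 fold change 1.35, limma adjusted p = 0.00790). Lag3, which cells other than lymphocytes can also carry, rose by 2.75, and Cd80 and Cd86, the ligands that antigen-presenting cells offer to CD28, by 2.05 and 2.10 (limma adjusted p from 0.000306 to 0.00164).

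Among 20 genes of lymphocyte recruitment and adhesion 11 rose and 0 fell. The ligands of the T cell chemokine receptor Cxcr3 had the largest differences, with log2 fold changes of 4.27 for Cxcl10, 3.36 for Cxcl9 and 3.25 for Cxcl11 (limma adjusted p from 0.000151 to 0.00419). For Cxcl9 the groups overlapped and 4 of 5 pairs were higher in shOpn3, replicate 1 being lower (45.9 in shControl, 27.8 in shOpn3). Within shOpn3, Cxcl10 was lowest in replicate 1 (363 normalized counts) and highest in replicate 4 (1757), the sample of that group with the highest counts for 8 members. Cxcr3, which the 11 include, reached the required mean through shOpn3 (shControl mean 5.66). Itgal, an integrin chain of leukocytes, rose by 2.42 (limma adjusted p = 0.000533). Of 13 tested genes of class I presentation, the pathway whose molecules CD8 binds, 9 rose and 0 fell. Examples are RT1-A1 (1.801) and RT1-CE10 (1.70), the proteasome subunit Psmb8 (1.32) and the regulator Nlrc5 (1.54), with limma adjusted p from 0.00164 to 0.00547. RT1 genes are a family of similar copies, so their single values are uncertain.

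**Figure D4:**
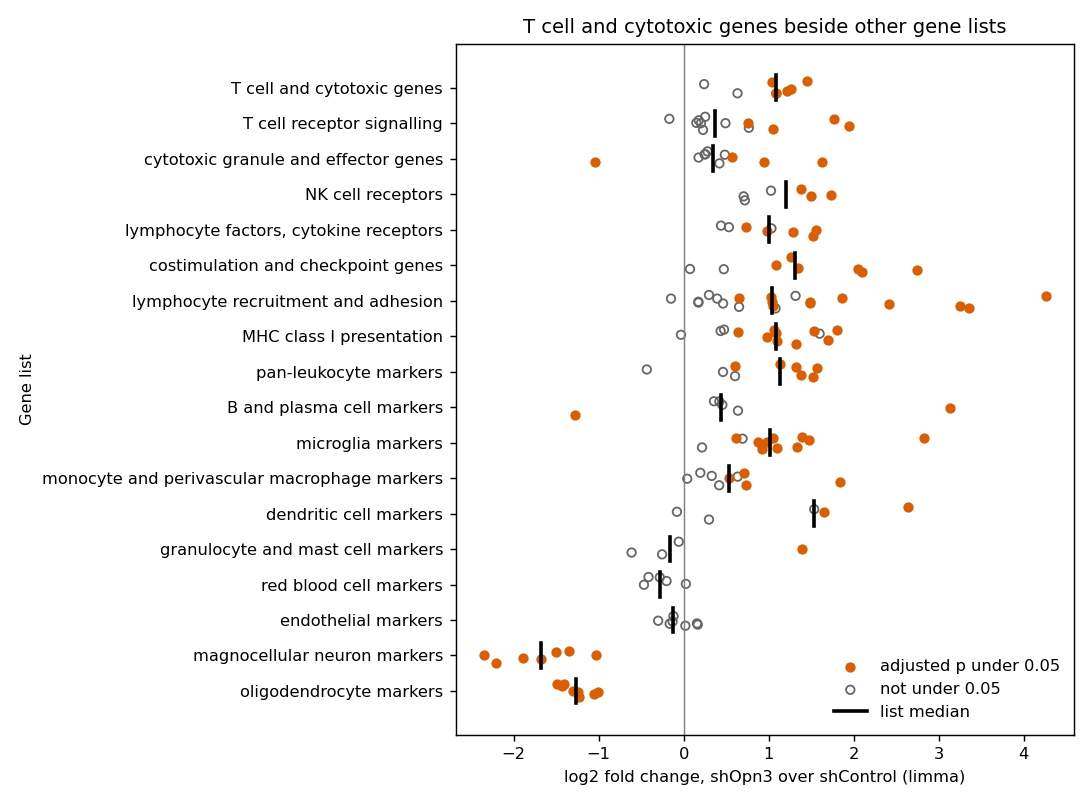
Log2 fold change (shOpn3 over shControl, limma) of each tested gene in 18 lists. Each point is a gene, filled where the adjusted p was under 0.05, and black bars are list medians. The T cell and cytotoxic genes had a median of 1.09, microglia markers 1.02 and oligodendrocyte markers -1.27.

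Markers of other immune cells differed in how many rose. Microglia markers rose in 10 of 12 tested, led by Cd68 (2.82 on the log2 scale) and Itgam (1.48), and their summed level was 17023 to 21091 normalized counts in shControl and 26558 to 51078 in shOpn3, against 77.6 to 189 and 177 to 501 for the members. Pan-leukocyte markers rose in 6 of 9 (sums 7210 to 8767 and 10979 to 22115), with Ptprc, the CD45 of all leukocytes, higher by 1.57 on the log2 scale. Monocyte and perivascular macrophage markers rose in 4 of 9 (5610 to 8829 and 9048 to 18234), led by Plac8 (1.84), and dendritic cell markers in 2 of 5 (554 to 638 and 733 to 1125), led by Itgax (2.64), the other being Xcr1, which reached the required mean through shOpn3 (shControl mean 7.37). None of the markers of these 4 lists was at 0. Their part in the values of members that such cells can also carry was not tested.

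B and plasma cell markers had 1 higher and 1 lower of 6 tested, and 2 higher with the block (sums 150.0 to 216 and 542 to 1417). The rise was that of Cd22 (3.13 on the log2 scale), which microglia can also carry, and the fall that of Mzb1 (-1.28; lost without shControl replicates 1, 2 or 4 or shOpn3 replicates 1, 3 or 5, limma adjusted p from 0.0684 to 0.0820). Mzb1 reached the required mean through shControl, since its shOpn3 mean was 8.32. Ms4a1 and Cd79b, singled out after their values were seen, had log2 fold changes of 0.42 and 0.36 and did not pass. Granulocyte and mast cell markers had 1 higher of 4 tested, Csf3r (1.40), while S100a9 did not pass (-0.25), with Elane at 0 (sums 290 to 626 and 466 to 1142).

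Red cell transcripts were taken as a measure of blood in the punches, and their relation to lymphocytes carried in blood was not tested. Of 5 tested 0 rose or fell with limma, edgeR or DESeq2, and their sum, 36039 to 103366 normalized counts in shControl and 45919 to 85227 in shOpn3, was higher in shOpn3 in 2 of 5 pairs. Hbb, a beta globin, had a log2 fold change of -0.28 and Hba-a1, an alpha globin, one of -0.47 (limma adjusted p = 0.460 and 0.379). Replicate 3, the pair with the largest member differences, had the lowest Hbb of each group, 24242 in shControl and 31702 in shOpn3. In shOpn3 that was close to replicate 1, at 32621. Endothelial markers, among them Slco1a4 (0.17) and Vwf (-0.16), had 0 of 7 called with the same tools, and in both lists 0 genes had an unadjusted p under 0.05 with any of them. With the replicate block Slco1a4, higher in 5 of 5 pairs, passed (limma adjusted p = 0.0442), which made 1 of 7. Markers of the magnocellular neurons and of oligodendrocytes fell, in 7 of 7 and 8 of 8 tested genes, beside 8.48% of all genes tested that fell. Since counts are relative to the whole library, a fall of abundant transcripts and a rise of rare ones are read on one scale, and its part was not tested.

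Among 15589 other genes, those whose normalized counts followed the summed counts of the members most closely over the 10 samples were Shcbp1, RGD1309362, S100a10, B4galt1 and Atp1b2, with Spearman's rho of 0.99, 0.99, 0.99, 0.98 and 0.96. These values were picked as the highest of many, the samples share 2 groups and 5 pairs, and they are given as a description. Shcbp1 had 34.7 to 51.5 normalized counts in shControl and 49.9 to 159 in shOpn3.

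The authors' deposited table gave log2 fold changes of 1.58 for Cd3e, 1.47 for Cd3g, 1.27 for Cd2, 1.08 for Cd8a and 1.14 for Nkg7, with adjusted p-values of 0.00111, 0.00450, 0.00946, 0.00173 and 0.0260. In the authors' deposited table Cd8b, at 1.26, had an adjusted p of 0.0534, and Cd3d and Prf1, at 0.63 and 0.39, had 0.344 and 0.583.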

How the data were processed

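Values were taken from 1 deposited table of 10 samples. Per the submitters' processing notes, FastQC, STAR, featureCounts and DESeq2 were used, and versions, genome build, annotation and strand setting are not given in the sources used here. For each sample the authors deposited a signal per gene, the read count divided by a size factor, and 100% of positive values were whole multiples of the smallest in their sample (tolerance 1e-06), so reads were recovered. The authors' own comparison stood beside these deposited values, as a log2 fold change with its error, the Wald score and the p-value, raw and adjusted.

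Values were compared as log2(normalized count + 1) with limma 3.58.1 (R 4.3.3; eBayes with a trend) for 15597 genes with a mean of at least 10, with the group alone, two-sided, adjusted by Benjamini-Hochberg over all genes, threshold 0.05. Fold changes on this scale understate those of rare genes. Single genes were compared by exact permutation of the 252 splits. edgeR 4.0.16 and DESeq2 1.42.0 on recovered reads, other pseudocounts, filters and scalings, a replicate block and left-out samples were alternatives. The script was tested on simulated data. Across genes, samples with the same number deviated together from the group means in each of the 5 pairs (r from 0.12 to 0.44; for different numbers from -0.45 to 0.36, median -0.21). In pair 4, r was 0.12, and shControl replicate 4 correlated more with shOpn3 replicates 2 and 3 (0.24 each). Each rat gave a nucleus to each group, per the labels' protocols, and numbers were taken as pairs.

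Some genes of the lists are not reported here. The members and gene lists were chosen with earlier results of these data known. All members were named. Of each other list, up to 4 genes with an adjusted p under 0.05 and the largest fold changes were named, or the 2 most abundant where fewer than 2 passed. Where the text says so, others were singled out afterwards. Promoter windows came from RefSeq (GRCr8), matched by symbol for 9 of 10 members.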

Additional observations from a re-analysis of the deposited data

Results flagged for a closer look

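Among 134 sets of 5 samples (a named gene in a group), 9 held 1 sample far from the other values. Chance gives about 1 in 20, or 6.7 here. Cd2 reached 82.1 normalized counts in shOpn3 replicate 4, and the next sample had 40.2. Cd6, a surface receptor of T cells, stood at 107 in shControl replicate 5 (next 75.8), and in shControl replicate 4 Klrc2, an NK cell receptor, stood at 20.6 (next 6.33). Cxcl9 reached 45.9 in shControl replicate 1 (next 16.9), and the leukocyte gene Cd53 was lowest there, at 633 (next 774). The magnocellular genes Oxt and Otp were highest in shControl replicate 1, at 56716 and 188, and Otp also in shOpn3 replicate 1, at 91.1 (next 30.8). Hbb was lowest in shControl replicate 3, at 24242 (next 49782). What set these samples apart was not tested.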

How the results depend on the processing

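Of 291 values that the 8 tested members took in 37 alternative fits, 225 gave the same direction and the same call, 60 lost the call, 4 gained it and 2 changed sign. Both changes of sign were those of Prf1, at -0.018 under quantile normalization and -0.069 without shOpn3 replicate 4, its values with samples left out ranging from -0.069 to 0.466 with limma and up to 0.629 with edgeR. S100a9 changed sign without shOpn3 replicate 3 (0.011), in a range from -0.534 to 0.011. Cd8a was called in 35 of 37 fits and Cd3e in 34, Cd2 in 20 of 37, Cd3g in 18 and Nkg7 in 16 of 36. The gains were those of Cd8b, each in a fit with the replicate block (4 of 36).

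The members called were 5 in the reported fit, 6 with the replicate block (limma and edgeR), 2 without a filter on low values, 3 with a mean of at least 30 (where 3 were tested) and 2 under quantile normalization. With 1 library left out they ranged from 1 to 5, the 1 being Cd8a without shOpn3 replicate 3. With both samples of a number left out they ranged from 0 to 3 (0 without replicate 3, also with edgeR), and with the replicate block as well from 3 to 5.

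The genes called over the whole table were 2940 (1322 lower), 4726 (2376 lower) with the replicate block in limma, 4777 (2490 lower) with the replicate block in edgeR and 4740 with the block and a mean of at least 1. With 1 library left out they ranged from 1973 to 3057, with both samples of a number from 1603 to 2733, and with the block and replicate 4 left out they were 4567. edgeR called 1933 without replicate 2 and 1685 without replicate 3, where limma called 1878 and 1603. Fits without both samples of a number and the fit joining the lower filter with the block were chosen after the data were seen. The median log2 fold change of all genes was -0.02, -0.02 and -0.03 with size factors, TMM and quantile normalization. The rarest members, with 28 reads in a group for Gzma, are limited by depth.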
